A study of Mus musculus with 6 samples.

Results

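Genes of the Wnt pathway were followed from fetal fibroblasts to iPS cells and ES cells. A gene was taken as a member where the array's annotation gives it a symbol of the Wnt, Fzd, Sfrp or Dkk families, or where it was Lrp5, Lrp6, Axin2, Ctnnb1, Tcf7l1, Tcf7l2, Lef1, Wif1 or Nkd1. This gave 44 of the 16593 annotated genes, with 63 probes: 19 ligands, 10 receptors, 9 secreted antagonists and 6 intracellular genes. Axin1 and Tcf7 were not analysed here. RNA of 6 cultures was hybridized to Illumina mouse-8 V2 BeadChips, 1 array per culture. FAH-/- MEFs were fetal fibroblasts of mice that lack fumarylacetoacetate hydrolase, an enzyme of tyrosine breakdown. FAH-/--iPS cell lines #4 and #7 were clonal lines made from such fibroblasts with retroviral Oct4, Sox2, Klf4 and c-Myc. Lines #7.1 and #7.2, named FAHgc for gene-corrected, were subclones of line #7 after lentiviral transfer of an FAH and EGFP cassette behind the viral SFFV promoter. OG2 ES cells, which hold an Oct4-GFP reporter, served as the pluripotent reference. The MEFs and all 4 iPS cell lines carry the FAH-/- genotype and the iPS cell lines all carry the reprogramming vectors, while the OG2 ES cells carry neither. The iPS cells were grown on MEF feeder cells.

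Wnt proteins are secreted lipid-modified ligands that bind frizzled receptors together with the coreceptors Lrp5 and Lrp6. In the canonical branch this stops a cytoplasmic complex built on axin from destroying β-catenin (Ctnnb1), which then works in the nucleus with the TCF/LEF factors. Frizzled-related proteins (Sfrp) and Wif1 bind the ligands outside the cell, and Dkk1 blocks the coreceptors. In mouse ES cells canonical signalling favours self-renewal, largely by lifting repression by Tcf7l1, and noncanonical ligands such as Wnt5a are known from mesenchymal cells.

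Between 45.8% and 48.6% of the 25697 probes on an array were above background, and the 6 arrays limit the precision of every value. The labels held against cell type markers. All 18 fibroblast markers measured were above background in the MEFs, where their summed normalized signal was 96204. The sum was 3365 in the ES cells and 4347 to 5293 in the 4 iPS cell lines. Of the 18, 14 were still above background in the ES cells and 13 to 15 in each iPS cell line. Col1a2, Pdgfrb and Postn were not above background in any pluripotent culture. All 14 pluripotent cell markers were above background in the ES cells and in each line, and 5 were in the MEFs. In such bulk RNA, fewer cells of a type and less RNA per cell cannot be told apart.

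Of the 44 members, 29 were above background on at least 1 array, 10 of them on all 6, and 15 on none. The 10 on all arrays were Wnt5a, Fzd6, Fzd7, Lrp5, Dkk3, Sfrp1, Sfrp2, Ctnnb1, Tcf7l1 and Tcf7l2. The MEFs had 23 members above background and the ES cells 17, and 14 were above background in all 4 iPS cell lines. Wnt2, Wnt6, Wnt16, Fzd1 and Sfrp5 were above background in the MEFs only. Of all 16593 genes, 10682 were above background on at least 1 array, 650 of them in the MEFs only. Wnt7b, Wnt8a, Fzd10 and Axin2 were above background in the ES cells and all 4 lines but not in the MEFs. The members that stayed in the background were mostly ligands. Wnt1, Wnt2b, Wnt3, Wnt3a, Wnt7a, Wnt8b, Wnt9a, Wnt9b, Wnt10b and Wnt11 were not above background on any array, nor were Fzd8, Dkk2, Dkk4, Sfrp4 and Nkd1. A low level of these 15 genes was not detectable on this array.

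**Figure D1:**
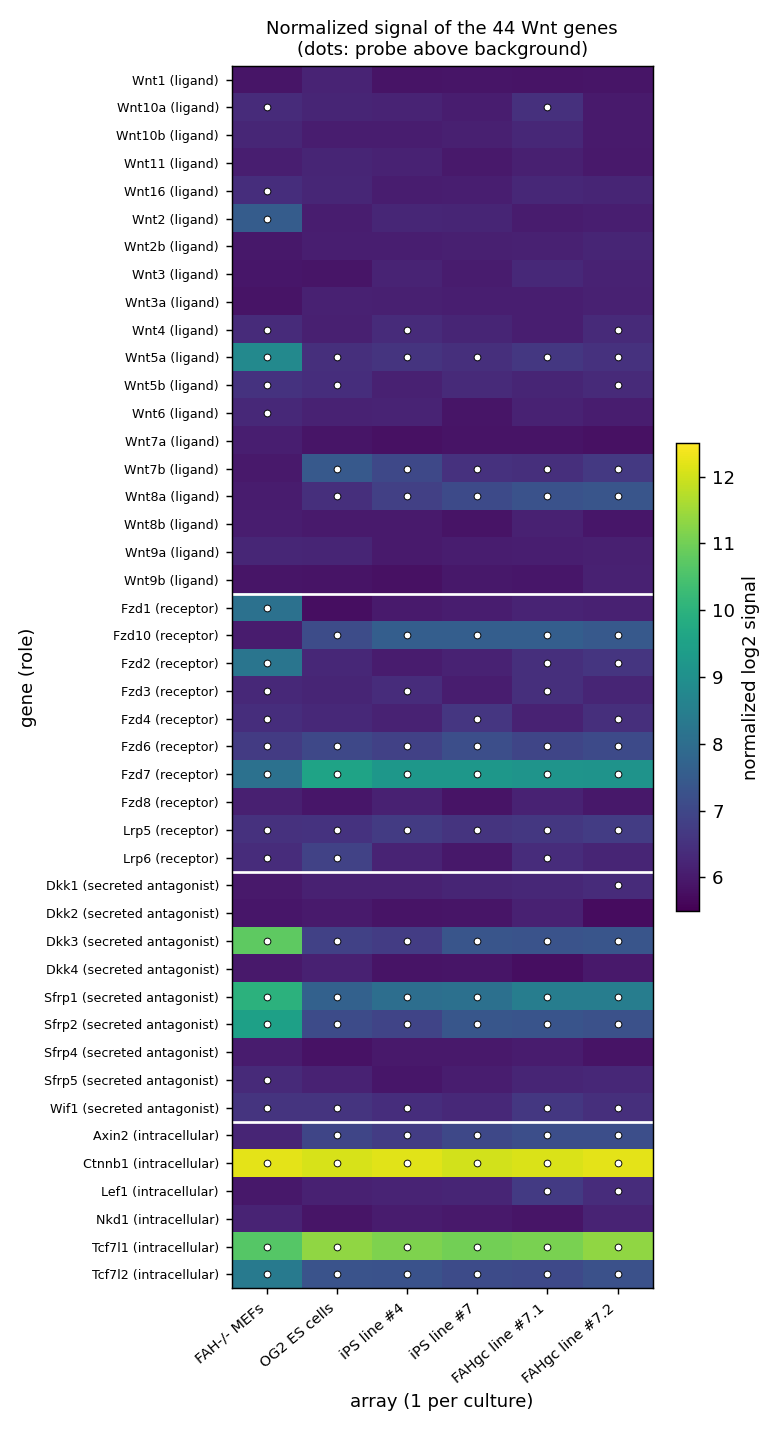
Normalized log2 signal (colour) of the 44 members (rows, with their role) on the 6 arrays (columns, 1 per culture), with a dot where the probe was above background. The ligands have few dots, and Wnt5a, Fzd1, Fzd2, Dkk3, Sfrp1 and Sfrp2 are brightest in the MEF column.

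The first comparison asked which Wnt genes changed when fibroblasts became iPS cells. The 4 iPS cell lines had lower signals than FAH-/- MEFs for the ligands Wnt2 and Wnt5a, the receptors Fzd1 and Fzd2, the antagonists Dkk3, Sfrp1 and Sfrp2 and the transcription factor Tcf7l2. They had higher signals for the ligand Wnt8a and the receptors Fzd7 and Fzd10. A gene was called where limma's Benjamini-Hochberg adjusted p was under 0.05 and the difference at least 2-fold. Of the 29 members tested, 3 were called higher, 8 lower and 18 not at all. Over all 10682 genes tested, 13.1% were called higher and 13.0% lower. With each array scaled to 1 median in place of quantile normalization, the split over all genes moved from 1404 higher and 1389 lower to 1050 and 1846. The median log2 difference of the 29 members was −0.11, against 0.03 over all genes. Wnt2, Wnt6, Wnt16, Fzd1 and Sfrp5 entered the 29 through the MEF array alone, and each was lower in the iPS cell lines. Wnt2 and Fzd1 are among the 8 called lower. Wnt7b, Wnt8a, Fzd10, Dkk1, Axin2 and Lef1 entered without the MEF array, and each was higher. For the lone MEF and ES cell arrays the fit takes the spread of the iPS cell lines, 3 of which share a derivation, so its p-values speak of differences between these 6 cultures only.

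Among the ligands, Wnt5a, the main noncanonical Wnt of mesenchyme, had a log2 signal of 8.79 in the MEFs, 6.44 in the ES cells, 6.55 in line #4, 6.45 in line #7, 6.62 in #7.1 and 6.50 in #7.2. All 5 pluripotent cultures lay close together and far below the fibroblasts. The difference between the iPS cell lines and the MEFs was −2.26 (SE 0.14, adjusted p = 9.6e-08 from limma), a 4.78-fold lower signal. A second, dimmer Wnt5a probe gave 7.04 in the MEFs and was not above background elsewhere, and with the mean of both probes the difference was −1.58. Wnt2, a ligand of fetal mesenchyme such as that of the lung, had 7.55 in the MEFs, 6.06 in the ES cells, 6.25 in line #4, 6.21 in line #7, 6.02 in #7.1 and 6.07 in #7.2. Only the MEF value was above background, so the iPS cell lines were at least 2.34-fold lower (log2 difference −1.41, SE 0.15, adjusted p = 6.6e-06 from limma).

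Wnt8a, a ligand that acts on β-catenin in the early embryo around the primitive streak, ran the other way. Its log2 signal was 6.04 in the MEFs, 6.46 in the ES cells, 6.82 in line #4, 7.08 in line #7, 7.25 in #7.1 and 7.34 in #7.2. Every iPS cell line was above the ES cells, and the MEFs were not above background. The difference from the MEFs was 1.08 (SE 0.19, adjusted p = 0.00038 from limma), or at least 1.77-fold. A second probe gave 5.94 in the MEFs and 6.78 to 7.18 in the lines, and the last 5.94 and 6.29 to 6.59. The call ended without background correction (0.80), with the mean of the probes (0.88) and with lines #4 and #7 alone (0.91). Wnt7b, a ligand of epithelia, had 5.98 in the MEFs, 7.46 in the ES cells, 7.01 in line #4, 6.49 in line #7, 6.44 in #7.1 and 6.66 in #7.2. Here the ES cells were highest, and line #4 stood between them and line #7 with its subclones. The log2 difference between the iPS cell lines and the MEFs was 0.68 (SE 0.20, adjusted p = 0.013 from limma), at least 1.28-fold, and was not called at the 2-fold threshold. The other Wnt7b probe was not above background on any array.

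The other 5 ligands tested, Wnt4, Wnt5b, Wnt6, Wnt10a and Wnt16, were dim, with signals between 5.90 and 6.52 on every array. Each was above background in the MEFs, and their differences between the iPS cell lines and the MEFs ran from −0.26 (Wnt5b) to −0.10 (Wnt4). None was called.

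**Figure D2:**
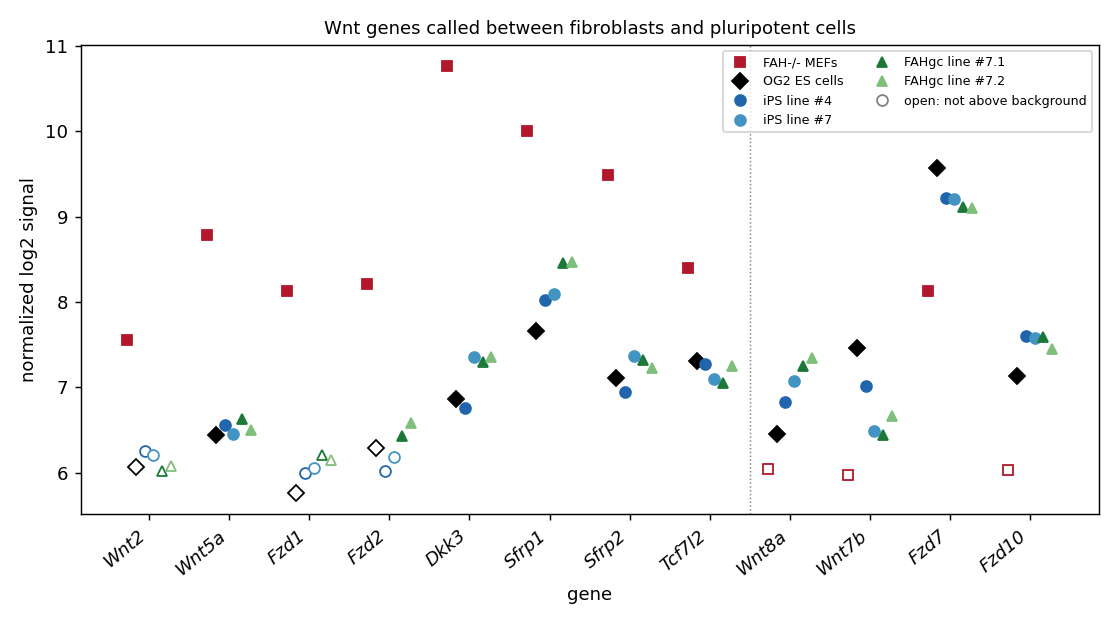
Normalized log2 signal of the 12 members called in a comparison between cell types, 1 point per array (squares MEFs, diamonds ES cells, circles lines #4 and #7, triangles lines #7.1 and #7.2; open points not above background). Left of the dotted line the MEFs lie above all 5 pluripotent cultures, for Wnt5a at 8.79 against 6.44 to 6.62, and right of it they lie below them.

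The frizzled receptors divided. Fzd1 had a log2 signal of 8.12 in the MEFs, 5.76 in the ES cells, 6.00 in line #4, 6.05 in line #7, 6.21 in #7.1 and 6.15 in #7.2. Fzd2, which with Fzd1 and Fzd7 forms a subfamily of closely related receptors, had 8.21 in the MEFs, 6.29 in the ES cells, 6.02 in line #4, 6.18 in line #7, 6.43 in #7.1 and 6.59 in #7.2. Neither was above background in the ES cells or in lines #4 and #7, and Fzd2 was so in lines #7.1 and #7.2. The iPS cell lines were lower than the MEFs by a log2 difference of −2.02 for Fzd1 (SE 0.14, adjusted p = 2.7e-07 from limma), or at least 3.48-fold, and of −1.91 for Fzd2 (SE 0.20, adjusted p = 5.9e-06), or 3.75-fold.

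Fzd7, a receptor known for its role in ES cell self-renewal, had 8.12 in the MEFs, 9.57 in the ES cells, 9.22 in line #4, 9.20 in line #7, 9.12 in #7.1 and 9.10 in #7.2. The 4 iPS cell lines lay within 0.11 of each other, between the MEFs and the ES cells. The difference from the MEFs was 1.03 (SE 0.14, adjusted p = 4.7e-05 from limma), or 2.05-fold, and fell below 2-fold with median scaling (0.73) and without background correction (0.95). Fzd10 had 6.03 in the MEFs, 7.13 in the ES cells, 7.60 in line #4, 7.58 in line #7, 7.59 in #7.1 and 7.45 in #7.2. It was not above background in the MEFs, and the iPS cell lines were higher by 1.52 (SE 0.14, adjusted p = 2.3e-06 from limma), or at least 2.39-fold. The other Fzd10 probes gave smaller differences of 0.65 and 0.22, and with the mean of the probes the value was 0.80.

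The remaining receptors kept their signals within 1.5-fold of the MEFs. Fzd6 ran from 6.73 in the MEFs to 7.18 in line #7. Lrp5, a coreceptor of canonical signalling, had 6.51 in the MEFs, 6.54 in the ES cells, 6.71 in line #4, 6.56 in line #7, 6.63 in #7.1 and 6.76 in #7.2, a difference of 0.15 (95% interval −0.16 to 0.47). Lrp6, its partner, had 6.38 in the MEFs, 6.88 in the ES cells, 6.20 in line #4, 5.95 in line #7, 6.38 in #7.1 and 6.22 in #7.2. It was above background in the MEFs, the ES cells and line #7.1 only. Fzd3 and Fzd4 stayed between 6.05 and 6.60 on every array.

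The sequences just before and after the start sites of Fzd7, Fzd10, Fzd1 and Sfrp2 are shown because these genes were called in opposite directions and RefSeq gives each of them 1 start. Each window runs from 250 bases before to 50 bases after the start, 5′ to 3′ on the gene's strand in GRCm38.p6, with CG dinucleotides in capitals. Fzd7 lies at chr1:59481897-59482196 (plus strand), Fzd10 at chr5:128600856-128601155 (plus), Fzd1 at chr5:4758167-4758466 (minus) and Sfrp2 at chr3:83766071-83766370 (plus).
Fzd7: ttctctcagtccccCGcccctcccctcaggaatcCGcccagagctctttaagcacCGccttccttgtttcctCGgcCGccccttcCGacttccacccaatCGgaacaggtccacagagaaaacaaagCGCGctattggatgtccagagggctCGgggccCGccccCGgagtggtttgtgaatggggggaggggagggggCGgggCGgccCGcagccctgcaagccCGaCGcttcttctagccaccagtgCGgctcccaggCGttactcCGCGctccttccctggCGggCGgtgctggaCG
Fzd10: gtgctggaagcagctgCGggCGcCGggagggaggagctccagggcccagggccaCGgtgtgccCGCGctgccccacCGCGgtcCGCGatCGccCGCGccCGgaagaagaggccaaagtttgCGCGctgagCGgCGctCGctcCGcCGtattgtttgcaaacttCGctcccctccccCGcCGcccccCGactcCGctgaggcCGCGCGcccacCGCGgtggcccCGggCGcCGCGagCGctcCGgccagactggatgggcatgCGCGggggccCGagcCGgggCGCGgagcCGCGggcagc
Fzd1: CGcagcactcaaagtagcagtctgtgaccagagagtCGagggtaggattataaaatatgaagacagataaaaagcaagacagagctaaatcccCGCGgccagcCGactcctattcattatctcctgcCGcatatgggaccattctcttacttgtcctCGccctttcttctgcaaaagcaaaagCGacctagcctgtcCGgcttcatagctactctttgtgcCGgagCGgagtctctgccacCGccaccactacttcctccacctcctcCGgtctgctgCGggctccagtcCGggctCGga
Sfrp2: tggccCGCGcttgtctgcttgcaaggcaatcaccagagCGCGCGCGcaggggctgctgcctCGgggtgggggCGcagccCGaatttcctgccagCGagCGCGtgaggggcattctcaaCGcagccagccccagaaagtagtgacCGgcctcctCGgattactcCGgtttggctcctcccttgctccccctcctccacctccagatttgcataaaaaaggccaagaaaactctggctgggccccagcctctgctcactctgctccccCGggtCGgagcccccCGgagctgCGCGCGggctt
The 2 receptors called higher hold 24 (Fzd7) and 45 (Fzd10) CG dinucleotides, with a GC content of 66.7% and 77.7%. Fzd1 holds 16 with 54.0% GC, and Sfrp2 holds 22 with 66.0%. Wnt2, also called lower with 1 start but not printed, holds 27 with 65.7%. The windows of Tcf7l2, called lower as well, hold 34 and 7. Windows were at hand for 30 of the 44 members, 38 windows in all, with a median of 24.5 CG dinucleotides against 7 over all 32851 windows. The TCF/LEF motif, searched as CTTTGAT or CTTTGAA on both strands, was found in 8.65% of all windows and in 3 of the 38, a window each of Wnt5b, Wnt11 and Dkk1. None of the 7 windows of called members (Fzd7, Fzd10, Fzd1, Sfrp2, Wnt2 and Tcf7l2) held these letters, nor did that of Axin2. Methylation and binding were not measured on these arrays.

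Among the secreted antagonists, all the calls were towards lower signals in the iPS cell lines. Dkk3, a Dkk family member that unlike Dkk1 is not an established coreceptor blocker, had 10.77 in the MEFs, 6.86 in the ES cells, 6.76 in line #4, 7.36 in line #7, 7.30 in #7.1 and 7.35 in #7.2. The difference was −3.57 (SE 0.21, adjusted p = 7.3e-08 from limma), or 11.9-fold, a second probe gave −3.44 and the last −0.31, and with the mean of the probes it was −2.44. Line #4 lay beside the ES cells, and line #7 and its subclones lay above both. Sfrp1 had 10.003 in the MEFs, 7.66 in the ES cells, 8.03 in line #4, 8.10 in line #7, 8.46 in #7.1 and 8.47 in #7.2. Its difference was −1.74 (SE 0.19, adjusted p = 9.1e-06 from limma), or 3.34-fold. All 4 lines stayed above the ES cells.

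Sfrp2 had 9.48 in the MEFs, 7.11 in the ES cells, 6.95 in line #4, 7.36 in line #7, 7.32 in #7.1 and 7.23 in #7.2. The difference was −2.27 (SE 0.17, adjusted p = 4.6e-07 from limma), or 4.81-fold. Dkk3, Sfrp1 and Sfrp2 were above background in every pluripotent culture, beside summed fibroblast marker signals of 3365 to 5293 there against 96204 in the MEFs. The part of feeder cells in these signals was not tested. Dkk1, the coreceptor antagonist, was above background in line #7.2 only (6.36, against 5.98 in the MEFs). Wif1 stayed between 6.30 and 6.64, and Sfrp5 was above background in the MEFs only.

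Of the intracellular genes, only Tcf7l2 was called. It had 8.40 in the MEFs, 7.30 in the ES cells, 7.27 in line #4, 7.10 in line #7, 7.05 in #7.1 and 7.25 in #7.2, a difference of −1.23 (SE 0.15, adjusted p = 2e-05 from limma), or 2.35-fold lower. A second probe went from 6.79 to between 6.27 and 6.38, another was below background on every array, and with the mean of the probes the difference was −0.64. Tcf7l1, the repressor of canonical target genes in ES cells, had 10.65 in the MEFs, 11.34 in the ES cells, 11.13 in line #4, 11.02 in line #7, 11.09 in #7.1 and 11.35 in #7.2. The MEFs were the lowest of the 6 arrays, by 0.50 against the iPS cell lines (SE 0.16, adjusted p = 0.017 from limma), which is under 2-fold. The difference was 0.26 with median scaling and 0.37 with the mean of the probes, and passed the test with neither.

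Axin2, a feedback inhibitor that is itself a target of canonical signalling, had 6.23 in the MEFs, 6.97 in the ES cells, 6.75 in line #4, 7.01 in line #7, 7.17 in #7.1 and 7.19 in #7.2. It was above background in every pluripotent culture and not in the MEFs. The difference of 0.80 (SE 0.18, adjusted p = 0.0022 from limma, with 4 of 4 lines above the MEFs) was not called at the 2-fold threshold, and as the MEF signal was not above background it stood for at least 1.66-fold. Over the alternatives it ran from 0.60 without background correction to 1.07 on the authors' own normalized values, where it was called, and it was 0.65 with lines #4 and #7 alone. Lef1 had 5.95 in the MEFs, 6.15 in the ES cells, 6.19 in line #4, 6.24 in line #7, 6.68 in #7.1 and 6.40 in #7.2, and was above background in lines #7.1 and #7.2 only. The transcript of β-catenin itself, Ctnnb1, was level, with 12.20 in the MEFs, 12.07 in the ES cells, 12.19 in line #4, 12.02 in line #7, 12.10 in #7.1 and 12.22 in #7.2. Its difference from the MEFs was −0.07 (95% interval −0.39 to 0.24). Protein and its location, where the pathway regulates β-catenin, were not measured.

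**Figure D3:**
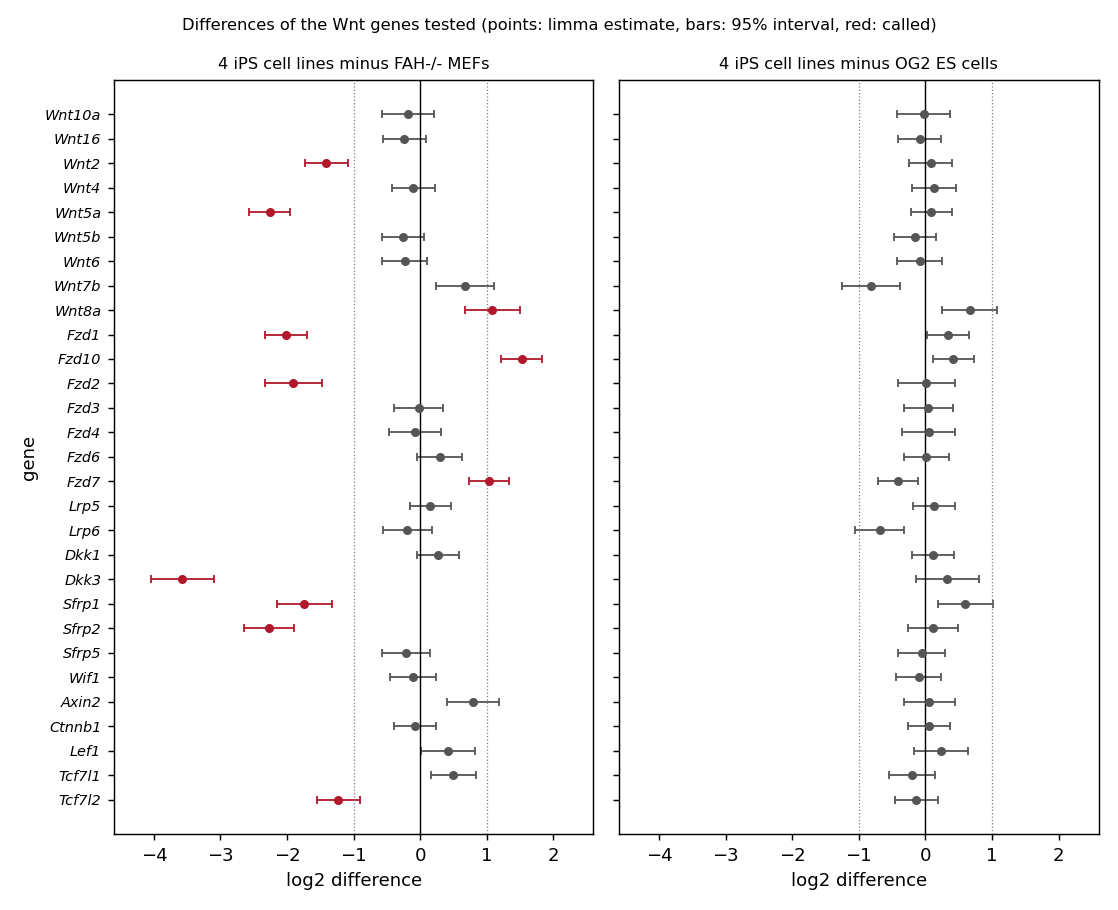
Log2 difference of the 29 members tested between the 4 iPS cell lines and FAH-/- MEFs (left) and OG2 ES cells (right), with limma's 95% interval; dotted lines mark 2-fold and red marks called genes. The 11 called members stand out on the left, from −3.57 for Dkk3 to 1.52 for Fzd10, and no point on the right passes 2-fold.

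The same question was asked of the ES cells, which share the MEF array with the first comparison and the ES array with the next. Here too Wnt2, Wnt6, Wnt16, Fzd1 and Sfrp5 entered through the MEF array alone. Against the MEFs, 3 members were called higher and 8 lower in OG2 ES cells, where 13.2% and 13.7% of all genes were. With median scaling the split over all genes moved from 1406 higher and 1460 lower to 869 and 2099. The 8 lower members were those lower in the iPS cell lines, from −3.90 for Dkk3 (SE 0.27, adjusted p = 4.1e-07 from limma) to −1.10 for Tcf7l2 (SE 0.19, adjusted p = 0.00043). The 3 higher were Wnt7b (1.49, SE 0.25, adjusted p = 0.00042, at least 2.25-fold), Fzd7 (1.44, SE 0.17, adjusted p = 3.1e-05) and Fzd10 (1.10, SE 0.18, adjusted p = 0.00028, at least 1.79-fold). The ES cells and the MEFs differed by 0.42 for Wnt8a (SE 0.24, adjusted p = 0.17).

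The next comparison asked whether Wnt genes differed between the iPS cell lines and ES cells. Of the 29 members, 0 were called in limma, with 7 at an unadjusted p under 0.05, where 0.449% of all genes were called higher and 0.543% lower. Of all 10682 genes, 1970 (18.4%) were at an unadjusted p under 0.05. Wnt2, Wnt6, Wnt16, Fzd1 and Sfrp5 were above background in the MEFs only and entered because the MEF array is in the fit. Of the other 24 members, 0 were called and 6 were at an unadjusted p under 0.05, against 19.6% of the 10032 genes above background in the ES cells or a line. The median difference of the 29 members was 0.05, against 0.02 over all genes. Wnt7b, at −0.81 (SE 0.20, adjusted p = 0.044 from limma, a 1.76-fold lower signal in 4 of 4 lines), and Lrp6, at −0.69 (SE 0.17, adjusted p = 0.043, 1.61-fold), passed the test but not the fold. Wnt8a was higher than in the ES cells by 0.67 (SE 0.19, adjusted p = 0.074, 4 of 4 lines) and Sfrp1 by 0.60 (SE 0.19, adjusted p = 0.11, 4 of 4 lines), and neither passed the test. Fzd10 (0.42) and Fzd7 (−0.41) were also at an unadjusted p under 0.05, as was Fzd1, whose signals were not above background in either group. Neither Wnt7b nor Lrp6 passed the test with median scaling, with the mean of the probes or with lines #4 and #7 alone. Among the iPS cell lines, Lrp6 was above background in line #7.1 only. Intervals of this width leave room for sizeable differences. For Axin2 the difference was 0.06 with a 95% interval from −0.33 to 0.45, and for Ctnnb1 it was 0.06 from −0.26 to 0.37.

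Gene correction was the subject of the last comparison, lines #7.1 and #7.2 against lines #4 and #7. Of 24 members tested, 0 were called in limma, with 4 at an unadjusted p under 0.05. Over all 9796 genes 0.0% were called, with 449 at an unadjusted p under 0.05. The 4 members were Sfrp1 (0.40, SE 0.13, 95% interval 0.12 to 0.69), Fzd2 (0.41, SE 0.14), Wnt8a (0.35, SE 0.14) and Lef1 (0.33, SE 0.14), each with an adjusted p of 0.94. All 4 were higher in the corrected lines. Of the 24 members, 17 were higher and 7 lower there, beside 4952 and 4843 of all 9796 genes. Wnt5b, Wnt10a, Fzd2, Lrp6, Dkk1 and Lef1 entered the 24 through a corrected line alone, and each was higher in the corrected lines. No member entered through an uncorrected line alone, so the filter itself leans the split towards higher. Fzd2 and Lef1 were not above background in lines #4 and #7, so their differences stood for at least 1.13-fold and 1.16-fold. Since both corrected lines descend from line #7, gene transfer, subcloning and line cannot be told apart in this contrast.

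Within the descent of line #7 no member was 2-fold apart. Between line #7.1 and line #7 the difference farthest from 0 among 21 members was that of Lef1 (0.45), where 0.111% of all genes were 2-fold apart. Between line #7.2 and line #7 it was that of Fzd2 (0.41), where 0.011% were. Both genes were not above background in line #7. Among the 14 and 15 members above background in both lines of a pair, Sfrp1 was farthest apart, by 0.36 in #7.1 and 0.37 in #7.2. Line #4 differed from the mean of the other 3 lines by less than 2-fold in all 24 members, with Dkk3 at −0.58, Wnt7b at 0.48, Wnt8a at −0.40 and Axin2 at −0.37, where 0.296% of all genes were 2-fold apart. These pairs of single arrays have no test.

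Around the members lie the genes that make, carry and answer the signal, described from 6 lists. The counts of each list against the MEFs stand beside 13.1% called higher and 13.0% called lower over all genes tested. As with the members, some genes entered the test through 1 group. Rspo2 and Lgr5 did so through the MEF array alone and were lower in the iPS cell lines. Notum, Frat2, Celsr3 and Sp5 entered without the MEF array and were higher. Of 6 tested genes of Wnt secretion and agonists, 3 were called lower than in the MEFs and 0 higher. Wls, the carrier that brings Wnt proteins to the cell surface, had 11.13 in the MEFs, 6.98 in the ES cells, 7.08 in line #4, 7.06 in line #7, 7.10 in #7.1 and 7.09 in #7.2, a difference of −4.05 (SE 0.13, adjusted p = 8.4e-10 from limma). The R-spondins, secreted proteins that strengthen Wnt signals, were lower as well, Rspo2 by −3.09 (SE 0.15, adjusted p = 1.1e-08, at least 6.39-fold) and Rspo3 by −2.24 (SE 0.16, adjusted p = 2.5e-07). Porcn, the acyltransferase that lipidates Wnt proteins, differed by 0.99 (SE 0.14, adjusted p = 9.9e-05) and stayed just under 2-fold. The summed fibroblast marker signal given above moved with these 3 calls, and its part in them was not tested.

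Of 11 tested inhibitors, Notum, an enzyme that removes the lipid from Wnt proteins, was called higher (1.59, SE 0.24, adjusted p = 0.00011 from limma, at least 2.55-fold) and Igfbp4 lower (−3.73, SE 0.25, adjusted p = 1.6e-07). Of 14 genes of the destruction complex and its regulators, Frat2, which binds GSK3 and hinders its work on β-catenin, was called higher (1.74, SE 0.23, adjusted p = 4.4e-05, at least 2.66-fold) and 0 lower. Apc and Gsk3b, core parts of the complex, differed by 0.42 and −0.15. Of 14 nuclear cofactors, 2 were higher and 3 lower. Genes of the Groucho family went both ways, with Tle4 at 3.03 (SE 0.14, adjusted p = 1.2e-08 from limma, and 1.20 with the mean of the probes), Tle2 at −1.15 (SE 0.16, adjusted p = 7e-05) and Tle5 at −1.81 (SE 0.20, adjusted p = 1.1e-05). Bcl9l, a β-catenin coactivator, was at −1.71 (SE 0.18, adjusted p = 5.8e-06 from limma). The Bcl9l call ended with the mean of the probes (−0.99).

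Of 16 noncanonical and planar polarity genes, 1 was called higher and 3 lower. Celsr3, a planar polarity cadherin, was at 1.51 (SE 0.14, adjusted p = 2.3e-06 from limma, at least 2.59-fold, and 0.69 with the mean of the probes), the glypican Gpc4 at −1.998 (SE 0.16, adjusted p = 7.2e-07) and the Wnt receptor Ryk at −1.47 (SE 0.15, adjusted p = 6.7e-06). Of 19 known Wnt target genes, 3 were called higher and 4 lower, with a median of 0.08. The higher ones were Sall4 (6.08), which also stands among the pluripotent cell markers, Sp5 (2.19, SE 0.20, adjusted p = 2.2e-06, at least 3.78-fold) and Notum. The 4 lower ones were Ccn5 (−3.94), Ccn4 (−3.76, and −2.23 with the mean of the probes), Twist1 (−2.05), which also stands among the fibroblast markers, and Cd44 (−2.03). Ccnd1 and Myc, often named as Wnt targets, differed by −0.08 and 0.16 and were not called.

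Against the ES cells, 0 genes of 4 of these lists were called, where 0.449% of all genes were called higher and 0.543% lower. Sp5, a transcription factor that answers canonical signals directly, was higher in the iPS cell lines by 1.28 (SE 0.20, adjusted p = 0.005 from limma), and Vangl2, a core planar polarity protein, by 1.06 (SE 0.15, adjusted p = 0.003). With lines #4 and #7 alone the difference was 1.09 for Sp5 (adjusted p = 0.15) and 1.01 for Vangl2 (adjusted p = 0.16). Vangl2 fell below 2-fold with the mean of its probes (0.51) and without background correction (0.93). Between corrected and uncorrected lines 0 genes of the 6 lists were called.

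The 5 pluripotent cultures could be put side by side for Axin2, Wnt8a and the targets Sp5 and Notum. Sp5 had a log2 signal of 6.03 in the MEFs, 6.94 in the ES cells, 7.85 in line #4, 8.21 in line #7, 8.39 in #7.1 and 8.42 in #7.2. Notum had 6.06 in the MEFs, 6.92 in the ES cells, 7.14 in line #4, 7.80 in line #7, 7.77 in #7.1 and 7.88 in #7.2. For all 4 genes line #4 was the lowest of the iPS cell lines, and for Wnt8a, Sp5 and Notum the ES cells were lower still. These genes were put together after their values were seen, and no test was made. Fgf5, a marker of primed epiblast, had 6.48 in the MEFs, 7.01 in the ES cells, 6.69 in line #4, 8.13 in line #7, 7.63 in #7.1 and 8.22 in #7.2. Of the 8 primed epiblast and streak markers measured, 5 were above background in line #4 and 6 in each of the other lines and in the ES cells. Their summed signal was 1396 in the ES cells, 1417 in line #4, 1924 in line #7, 1635 in #7.1 and 1851 in #7.2. Mesp1 and Mixl1, which mark the streak, were not above background on any array. Eomes, of the same list, was above background in every pluripotent culture, and Cer1 in all of them but line #4. The part of primed cells in these differences was not tested.

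**Figure D4:**
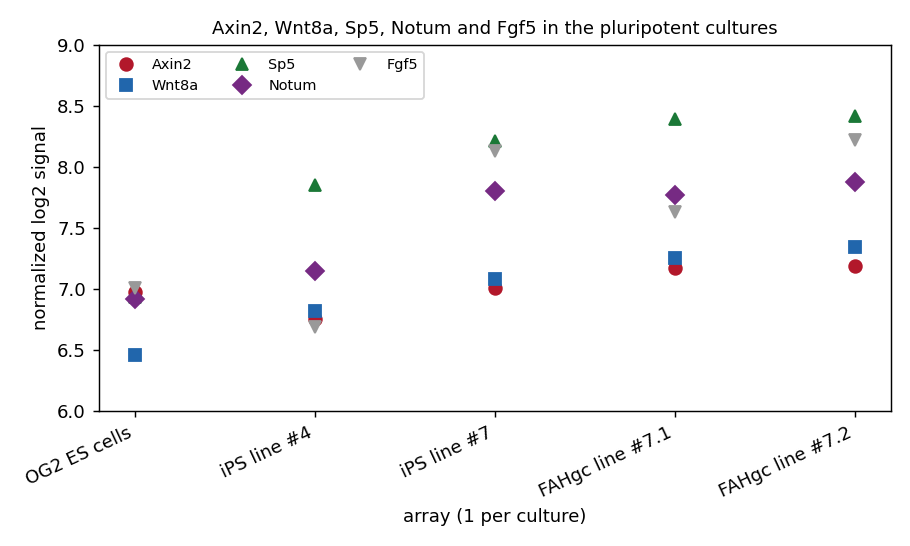
Normalized log2 signal of Axin2, Wnt8a, Sp5, Notum and the primed epiblast marker Fgf5 in the ES cells and the 4 iPS cell lines, 1 point per gene and array. All 5 genes are lower in line #4 than in line #7 and its subclones, for Sp5 7.85 against 8.21 to 8.42.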

How the data were processed

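RNA of 6 cultures was hybridized to Illumina mouse-8 V2 BeadChips. The authors' deposited files hold, per array, the probe intensity exported from BeadStudio (version not given in the sources used here) before background subtraction. The authors also deposited background-subtracted, cubic spline normalized intensity, which were used for the background level and as an alternative. From the exported intensity, normexp background correction (offset 50), quantile normalization and log2 were applied in limma 3.58.1 (R 4.3.3), and each gene was represented by its brightest probe. A probe counted as above background where it exceeded the array's background by the noise expected of 1% of background probes, and a gene was tested where this held on at least 1 array of the fit, so the comparison of iPS cell lines with ES cells holds genes above background in the MEFs only. The MEF, ES cell and 4 iPS cell arrays were fitted together (3 residual degrees of freedom) and the corrected and uncorrected lines in another fit (2), with Benjamini-Hochberg adjustment over all genes tested. A fold written as at least takes, for a group not above background, the lowest normalized signal that was. Promoter windows came from RefSeq (GRCm38.p6). The steps were tested on simulated data. Members, gene lists and tests were chosen with earlier results of these data known. Values on every array are given for called members and the canonical core, and up to 3 genes by size from each list; Fgf5, Apc, Gsk3b, Porcn, Ccnd1, Myc, Twist1 and Cd44 were named after their values were seen. Alternatives were median scaling, no background correction, other filters and folds, the mean of a gene's probes, the authors' values, lines #4 and #7 alone, and each line left out.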

Additional observations from a re-analysis of the deposited data

Results flagged for a closer look

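Among the 24 members above background in an iPS cell line, 2 had a line set apart from the other 3, judged by its gap to the nearest line over the whole range of the 4. Dkk3 in line #4 had a log2 signal of 6.76 against 7.30 to 7.36 in the other lines, a gap of 0.898 of the range. Fzd10 in line #7.2 had 7.45 against 7.58 to 7.60, a gap of 0.848 of a narrow range. Chance alone flags about 1 in 20 such groups.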

How the results depend on the processing

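Of 557 values recomputed under alternative settings for 48 results, 530 kept their direction and their side of the threshold and 0 changed sign. Against the MEFs, the members called higher in the iPS cell lines went from 3 to 1 without background correction, to 1 with the mean of the probes and to 5 at 1.5-fold, where Wnt7b and Axin2 joined. Those higher in the ES cells went from 3 to 1 with the mean of the probes and to 5 at 1.5-fold. Against the ES cells, the lower members went from 0 to 2 at 1.5-fold (Wnt7b and Lrp6). Wnt2, Wnt5a, Fzd1, Fzd2, Dkk3, Sfrp1 and Sfrp2 were called lower in both comparisons with the MEFs wherever they were tested, though Wnt2 and Fzd1 were not tested where a probe had to be above background on at least 3 arrays. In the comparison of ES cells with MEFs, calls ended for Fzd7 with median scaling (0.97), for Fzd10 (0.81) and Tcf7l2 (−0.96) without background correction and for Wnt7b (0.85), Fzd10 (0.53) and Tcf7l2 (−0.58) with the mean of the probes. The mean of the probes also shrank the differences of Wnt5a (−1.74) and Dkk3 (−2.64) there, which were still called. With median scaling the median over all genes in that comparison was −0.12, against 0.03. Leaving out each iPS cell line in turn gave 3 higher and 8 lower members each time, and 0 against the ES cells and between corrected and uncorrected lines. The causes were not tested. No paired analysis was possible because the compared groups share fewer than 2 replicate numbers, and slide as a block was not run because the files name no slides.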
